A study of Mus musculus with 6 samples.

Results

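Expression of 10 genes of lipid loading and cholesterol efflux was followed in the mouse cerebral cortex after stroke. The genes were chosen by name: Cd36, Msr1 and Lpl for uptake, Plin2, Soat1 and Fabp5 for storage and carriage inside the cell, and Abca1, Abcg1, Apoe and Apoc1 for efflux. They are 10 of the 15441 genes with a value in at least 1 library. Of these 10 genes, 9 were listed in all 6 libraries, and Msr1 was listed at days 1, 3, 7 and 14 only. Male C57/BL6J mice of 6 to 8 weeks received Rose Bengal, a dye that clots vessels when lit, and the skull over the sensorimotor cortex was illuminated (photothrombosis). Whole ipsilateral cortex was taken at day 1, 3, 7, 14 or 28 after stroke. Sham-operated mice, taken at day 7 after an operation without illumination, were the control. RNA of 3 mice was pooled for each group, so there was 1 library per group, without any spread between mice. Each difference below therefore compares libraries, has no replicate check and carries no p-value.

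Phagocytes that take up the cholesterol-rich debris of dead cells and myelin can store it as cholesteryl ester in lipid droplets, or pass it on. Scavenger receptors bring lipid in, acyltransferases and droplet coat proteins store it, and ATP-binding cassette transporters hand cholesterol to apolipoprotein E outside the cell. The nuclear receptors of the LXR and PPAR families are known to turn on many of these genes when sterols or fatty acids accumulate. In the brain, astrocytes and microglia are the known main sources of apolipoprotein E.

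Values are in FPKM (fragments scaled to transcript length and to the size of the library), a scale per length that allows levels of different genes to be set side by side. The files give this value for each transcript end, transcript start and splicing event. A gene's value is the largest of its summed starts, its summed ends and any single event, and a gene absent from a library is called not listed. Where 6 values follow each other, they stand for sham and days 1, 3, 7, 14 and 28. Each library listed 13263 (day 14) to 13987 (day 7) genes and 83501 (day 14) to 99187 (day 7) events. The labels state an average of 33.6 M reads per sample, and the depth of each library is unknown. The labelled tissue matched its markers: 6 of 7 neuronal genes were listed, with summed FPKM between 997 (day 14) and 1484 (sham), and all 7 astrocyte genes were listed, with sums between 857 (sham) and 1512 (day 3). No gene of a 4-gene adipocyte list had a value. Lack of a value does not show lack of expression, as Tubb3 of the neuronal list had none either.

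The upstream sequences of 3 members are shown because Plin2 had the highest ratio to sham, Abca1 is a known LXR target, and Apoe had the highest FPKM. RefSeq windows (GRCm38, the release the files call mm10) were matched by symbol for 5 of the 10 members, namely Soat1, Abca1, Plin2, Cd36 and Apoe. Each sequence is the 250 bases before the RefSeq start, 5′ to 3′ on the minus strand, on which all 3 genes lie. Capitals mark matches, on either strand, to AGGTCA (the core of the elements these nuclear receptors bind), GGGCGG (a GC box), CACGTG (an E box) or TATAAA.
Abca1, chr4:53159896-53160145: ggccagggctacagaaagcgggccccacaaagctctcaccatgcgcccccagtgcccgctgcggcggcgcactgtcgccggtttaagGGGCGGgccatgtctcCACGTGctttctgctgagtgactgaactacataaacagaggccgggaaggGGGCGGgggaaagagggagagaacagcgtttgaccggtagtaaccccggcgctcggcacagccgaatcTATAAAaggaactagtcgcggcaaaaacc
Plin2, chr4:86670060-86670309: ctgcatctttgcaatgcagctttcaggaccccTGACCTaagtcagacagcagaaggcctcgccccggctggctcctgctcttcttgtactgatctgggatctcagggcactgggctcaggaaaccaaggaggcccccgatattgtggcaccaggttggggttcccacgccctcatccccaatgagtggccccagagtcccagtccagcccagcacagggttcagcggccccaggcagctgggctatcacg
Apoe, chr7:19699189-19699438: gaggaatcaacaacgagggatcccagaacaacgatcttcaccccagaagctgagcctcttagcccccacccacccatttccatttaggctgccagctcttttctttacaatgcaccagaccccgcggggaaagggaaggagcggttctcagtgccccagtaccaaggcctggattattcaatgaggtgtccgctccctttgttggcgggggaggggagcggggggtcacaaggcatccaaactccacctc

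In the Abca1 window CACGTG was matched 147 bases before the start, GGGCGG at 163 and 97, and TATAAA at 29. In the Plin2 window AGGTCA was matched on the reverse strand 218 bases before the start. The Apoe window held no match. RefSeq gives 2 further Apoe starts, not shown here, and the window before one of them held TATAAA on both strands, 96 and 100 bases before its start. No matches overlapped in the windows shown. Of all 32851 windows of this length, AGGTCA was in 14.0%, GGGCGG in 32.7%, CACGTG in 6.02% and TATAAA in 12.4%. A further 4 motifs were searched and were in none of the 3 windows: AGGTCA repeated after a gap of 4 bases (0.0152% of all windows) or of 1 base (0.0335%), GAGGAAG (10.6%) and TGACTCA (4.46%). GC content was 61.6% in the Abca1 and Plin2 windows and 57.2% in the Apoe window, against a median of 52.4% over all windows. The transcript start with the highest FPKM lay at base 53159895 for Abca1, 86670060 for Plin2 and 19699188 for Apoe, each an annotated start and within 1 base of the end of its window. Motifs were searched as exact sequences, so a variant of any of them would be neither marked nor counted. The lack of a match therefore does not show that a window lacks such an element. A match is a description of the sequence and no evidence of binding.

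The 10 genes did not share 1 time course. Cd36, Msr1, Lpl, Plin2, Soat1 and Abca1 were highest at day 7, and Fabp5, Abcg1, Apoe and Apoc1 at day 14, as the plot of FPKM by library shows. By this gene value no member was highest in the sham, day 1, day 3 or day 28 library. With ends alone, Plin2 (44.6 FPKM at day 3, 40.5 at day 7) and Soat1 (6.39 and 5.57) were highest at day 3. With starts alone, Msr1 (3.96 and 3.21) was highest at day 3, and Apoc1 had starts listed only at days 1 and 28. The members listed in both libraries lay between -0.50 and 0.82 of sham on the log2 scale at day 28. Abca1 (0.82) and Apoe (0.76) were the highest of them, at percentiles 94.8 and 94.0 of the genes compared.

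**Figure D1:**
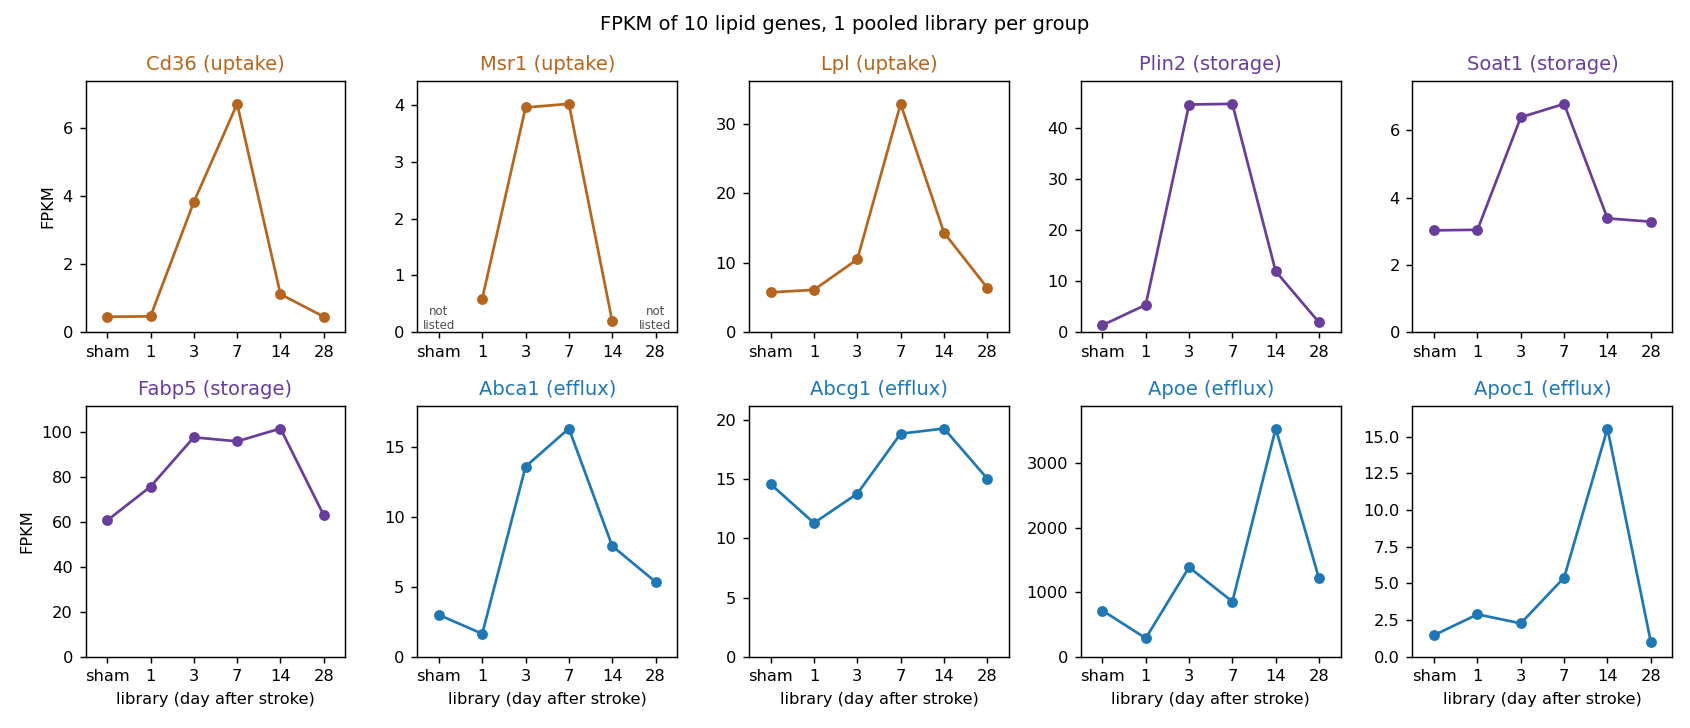
FPKM (linear axes from 0, 1 scale per gene) of the 10 genes in the sham library and at 1, 3, 7, 14 and 28 days after stroke. Each point is 1 library of pooled RNA, so there are no error bars, lines join libraries in order of time, and "not listed" marks Msr1 in the sham and day 28 libraries. Plin2 stood at 44.6 and 44.7 FPKM at days 3 and 7, and Apoe reached 3534 FPKM at day 14.

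For each gene that reached 1 FPKM in either library of a comparison, log2((FPKM + 0.1)/(reference FPKM + 0.1)) was taken, and a log2 ratio of at least 1 in size is called past the fold line. Values in times of sham or of another day are plain ratios of FPKM, with nothing added, and so are not exact powers of the printed log2 ratios. At day 1, 1 of the 8 members compared was past the line upward (Plin2) and 1 downward (Apoe), beside 5.11% of all genes higher and 4.48% lower. At day 3, 5 of 10 were higher (Abca1, Plin2, Soat1, Cd36 and Msr1) and 0 lower, beside 8.54% and 2.53% of all genes. At day 7, 7 of 10 were higher, the same 5 with Lpl and Apoc1, and 0 lower, beside 8.53% and 2.12%. The day 7 share of members was above that of all genes, but the members were chosen with earlier results of these data known. Cd36 (0.452 FPKM in sham) and Msr1 (not listed in sham) could pass the filter only through their value after stroke. They could therefore enter at days 3 and 7 almost only as higher, and neither was compared at days 1 and 28. The share describes the chosen genes and is no test against all genes.

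At day 14, 6 of 9 members were higher (Apoe, Abca1, Lpl, Plin2, Cd36 and Apoc1) and 0 lower, beside 8.97% and 6.92% of all genes. Here too Cd36 met the filter only through its value after stroke (1.11 FPKM) and could not enter as lower. Msr1, at 0.192 FPKM, did not meet it and was left out of the count and the median. At day 28, 0 of 8 were past the line in either direction, beside 3.68% and 2.79%. The median log2 ratio of the members compared was 0.05, 1.00, 2.11, 1.31 and 0.13 at days 1, 3, 7, 14 and 28, where the median of all genes compared was 0.01, 0.03, 0.03, 0.10 and 0.03. At days 3 and 7 Msr1 entered these counts and medians with sham taken as 0, and no ratio to sham is given for it.

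**Figure D2:**
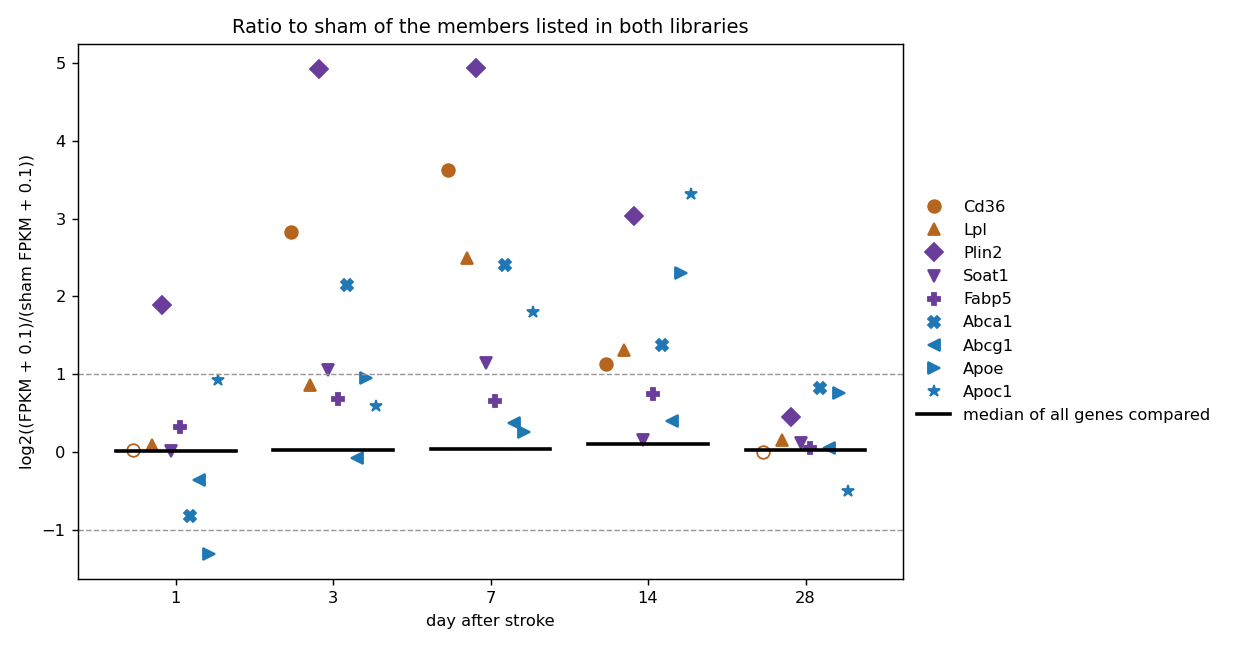
Log2 ratio to sham (vertical axis) of each member listed in both libraries at each day after stroke (horizontal axis). 1 symbol is 1 gene, brown for uptake, purple for storage and blue for efflux, open symbols are under 1 FPKM in both libraries, black bars are the median of all genes compared and dashed lines the fold line. Plin2 lies at 4.93 at days 3 and 7, and all members lie between -0.50 and 0.82 at day 28.

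Among the uptake genes, Cd36 encodes a scavenger receptor that also takes up fatty acids. Its FPKM was 0.452, 0.464, 3.82, 6.70, 1.11 and 0.455. Log2 ratios to sham of 2.83, 3.62 and 1.14 followed at days 3, 7 and 14. The sham, day 1 and day 28 libraries were within 0.03 of each other on that scale, and Cd36 was under 1 FPKM in all 3. The start of Cd36 transcripts was listed at different annotated sites: 3.70 of the 3.82 FPKM at day 3 lay at base 17849792 of chromosome 5, and all 6.70 at day 7 at base 17835696, and the other libraries listed no start.

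Msr1, the class A macrophage scavenger receptor, had 0.589, 3.96, 4.02 and 0.192 FPKM at days 1, 3, 7 and 14. Its log2 ratio was 2.56 for day 3 against day 1 and -3.82 for day 14 against day 7. The ratio of Cd36 to Msr1 was 0.787, 0.966, 1.67 and 5.79 at days 1, 3, 7 and 14. Msr1 thus stood low at day 14, where Cd36 was still above its sham level. A 56-base coding exon (chr8:39627699-39627754, exon 4 of Msr1-203, in 2 of 5 annotated transcripts) was left out in 100% of the Msr1 FPKM in all 4 libraries that listed the gene.

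Lpl encodes lipoprotein lipase, which frees fatty acids from lipoprotein triglyceride. Its FPKM was 5.73, 6.09, 10.5, 32.9, 14.3 and 6.37. Day 7 stood apart, at 5.73 times sham and at 3.13 times day 3 (log2 1.64), a step in which only Apoc1 among the other members passed the line. Log2 ratios to sham were 0.86, 2.50 and 1.31 at days 3, 7 and 14. All of these rest on 1 start, at base 68880491 of chromosome 8, and an end was listed only at day 7 (22.5 FPKM) and day 14 (5.63 FPKM).

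Plin2 encodes perilipin 2, which coats lipid droplets. Its FPKM was 1.37, 5.34, 44.6, 44.7, 11.9 and 1.90. This was 3.91, 32.6, 32.7 and 8.71 times sham at days 1, 3, 7 and 14. At day 7 its log2 ratio of 4.93 was at percentile 99.6 of the genes compared. Plin2 was the only member past the line upward at day 1.

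The day 3 and day 7 values of Plin2 were alike in total but not in make-up. At day 3, 35.5% of the FPKM at a 73-base exon (chr4:86658100-86658172) carried that exon, which GENCODE M21 places in Plin2-204, a transcript with no coding sequence, and no other library listed it. The FPKM without it was 28.8 at day 3 and 40.5 at day 7. Summed starts gave 28.1 FPKM at day 3 and 44.7 at day 7. The start at base 86670060 was listed in all 6 libraries and held 40.9 FPKM at day 7, and 2 starts further downstream were listed at day 3 or later with at most 3.36 FPKM each.

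Soat1 encodes the acyltransferase that makes cholesteryl ester for storage. Its FPKM was 3.02, 3.04, 6.39, 6.78, 3.38 and 3.28. The log2 ratio was 1.05 at day 3 and 1.14 at day 7, just past the line, and between 0.01 and 0.16 at the other days. With starts alone Soat1 was at -0.66 at day 1 and past the line downward at day 14 (-1.30). It was under the line with other settings where it had been higher: 0.97 with starts alone and 0.88 with a pseudocount of 1 at day 3, and 0.86 with ends alone and 0.95 with a pseudocount of 1 at day 7.

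Fabp5, a fatty acid binding protein of the cytoplasm, was already high in sham. Its FPKM was 60.8, 75.8, 97.8, 96.0, 101.7 and 63.0. The log2 ratios to sham ran from 0.05 (day 28) to 0.74 (day 14), and none was past the line. Its profile was a plateau from day 3 to day 14, without a single high library.

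Abca1 encodes the transporter that loads cholesterol onto lipid-poor apolipoproteins. Its FPKM was 3.00, 1.65, 13.6, 16.4, 7.94 and 5.37. The log2 ratio to sham was -0.82, 2.15, 2.41, 1.37 and 0.82 at days 1, 3, 7, 14 and 28. From day 1 to day 3 its FPKM differed by 8.25 times. Abca1 at day 28 was 1.79 times sham, the highest ratio to sham among the members at that day and under the fold line. The days 14 and 28 libraries listed no start of Abca1, and at day 1 the start held 0.672 FPKM where the end held 1.65.

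A coding exon of Abca1 differed in use between libraries, and its sequence is given because it was the only coding exon with a listed skipping event whose share was not the same in all libraries. It has 75 bases, a multiple of 3, and is exon 35 of 50 of Abca1-201 (chr4:53050935-53051009, minus strand, shown 5′ to 3′ in transcript direction, from GENCODE M21).
Abca1 exon 35: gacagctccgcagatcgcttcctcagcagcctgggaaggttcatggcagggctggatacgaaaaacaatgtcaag
The form without it held 1.85 FPKM at day 3 and 2.34 FPKM at day 7, which is 13.6% and 14.3% of the FPKM at this exon. It was listed in no other library, including sham. These are the 2 libraries with the highest Abca1 FPKM, and no detection limit for the others can be given without read counts.

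Abcg1 encodes the transporter that passes cholesterol to lipoprotein particles already formed. Its FPKM was 14.6, 11.3, 13.8, 18.8, 19.3 and 15.0. The log2 ratios ran from -0.37 (day 1) to 0.40 (day 14), and none was past the line. The ratio of Abca1 to Abcg1 was 0.206, 0.146, 0.989, 0.869, 0.412 and 0.357. The Abca1 level thus came close to that of Abcg1 at day 3, where in sham Abcg1 had been well above it.

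Apoe had the highest FPKM of the 10 genes in every library and made up between 72.8% (day 1) and 95.3% (day 14) of their summed FPKM. Its FPKM was 716, 287, 1386, 855, 3534 and 1212. Its rank among all genes was 8, 92, 2, 8, 1 and 3. Log2 ratios to sham were -1.32, 0.95, 0.25, 2.30 and 0.76 for days 1, 3, 7, 14 and 28. Apoe was the only member past the line downward at day 1, and its course had peaks at days 3 and 14 with a lower value between them.

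The day 7 value of Apoe depended on which end of the transcript was read. Summed starts gave 711, 186, 1367, 403, 2430 and 795 FPKM and summed ends gave the values above. With starts alone the log2 ratio was -0.82 at day 7, under sham, -1.94 at day 1 and 1.77 at day 14. The ratio of starts to ends was 0.99 in sham and at day 3, and 0.65, 0.47, 0.69 and 0.66 at days 1, 7, 14 and 28. Of all genes with both values, 23.4% (day 3) to 25.6% (day 14) were apart by over 1.5 times in a library.

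At day 7, 26.1% of the Apoe FPKM at a 70-base exon carried that exon, which lies in the untranslated part of Apoe-204 (chr7:19698404-19698473, in 1 of 11 annotated transcripts). The share was 5.80%, 1.96% and 0.026% at days 14, 28 and 3, and 0 in sham and at day 1. At days 1 and 14, a locus on the opposite strand that the authors assigned to Apoe added 7.76 and 39.9 FPKM. Without it Apoe was at 280 and 3494 FPKM.

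**Figure D3:**
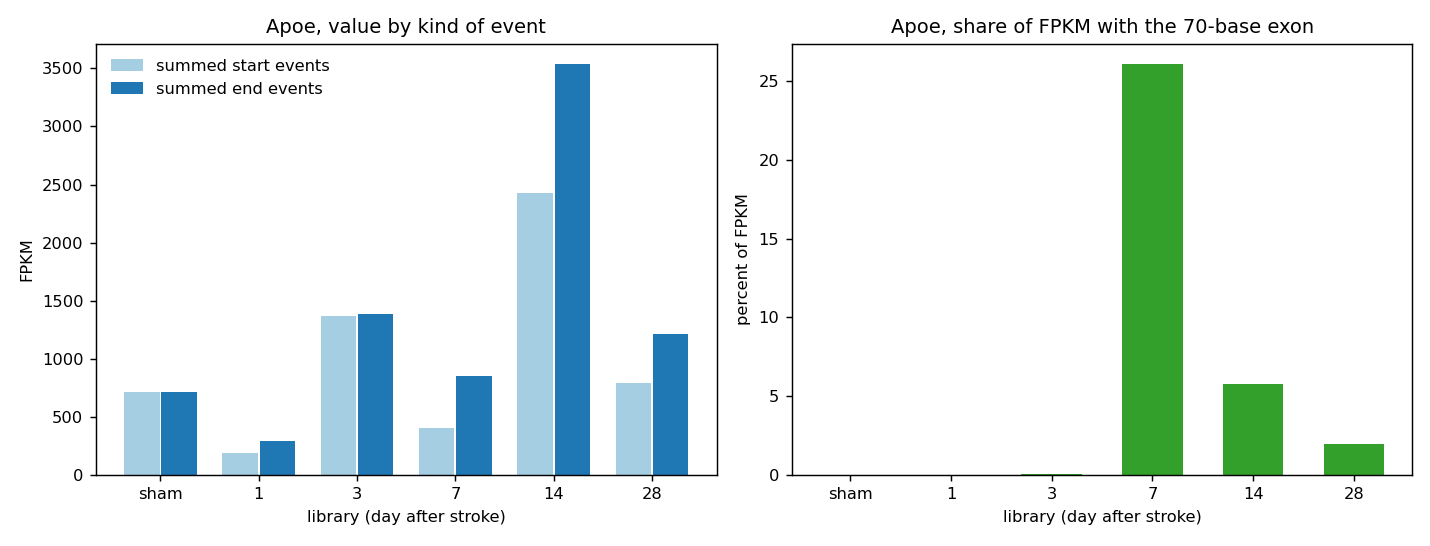
Left, FPKM of Apoe from summed transcript starts and from summed transcript ends in each library. Right, the percent of FPKM at the 70-base exon that carried it. Horizontal axes give the library, and each bar is 1 pooled library without an error. Starts and ends were alike in sham (711 and 716 FPKM) and apart at day 7 (403 and 855 FPKM), where the exon share was 26.1%.

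Apoc1, a small exchangeable apolipoprotein whose gene is a neighbour of Apoe, had 1.48, 2.89, 2.28, 5.40, 15.6 and 1.01 FPKM. The log2 ratio to sham was 1.80 at day 7 and 3.31 at day 14, and -0.50 at day 28. It was the member with the highest ratio to sham at day 14, at 10.5 times. The ratio of Apoe to Apoc1 was 486, 99.3, 609, 158, 227 and 1197, so the neighbours did not keep a fixed proportion. Apoe and Apoc1 have short transcripts (1408 and 532 bases at the longest), and a correction of each library for its trend with transcript length brought their day 14 log2 ratios to 1.95 and 2.89.

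The steps between neighbouring times place the changes. From day 1 to day 3, 6 of 10 members were past the line upward (Apoe, Abca1, Plin2, Soat1, Cd36 and Msr1) and 0 downward, beside 8.89% and 3.55% of all genes. From day 3 to day 7, 2 were higher (Lpl and Apoc1) and 0 lower, beside 3.22% and 2.81%. From day 7 to day 14, 2 were higher (Apoe and Apoc1) and 5 lower (Abca1, Lpl, Plin2, Cd36 and Msr1), beside 4.17% and 8.52%. Abca1 was only just past the line in this step (log2 -1.03). With the correction for transcript length its log2 ratios to sham were 2.45 at day 7 and 1.66 at day 14, a step downward but under the line. From day 14 to day 28, 0 of 9 were higher and 5 lower (Apoe, Lpl, Plin2, Cd36 and Apoc1), beside 6.94% and 7.88%. Each time point enters more than 1 of these comparisons. From day 1 to day 3, Cd36 and Msr1 met the filter only through day 3 and could enter almost only as higher. Msr1 met it only through day 7 in the step to day 14, and Cd36 only through day 14 in the step to day 28. In those steps they could not enter as higher. The efflux acceptors Apoe and Apoc1 thus moved upward in the same step in which uptake genes, Plin2 and Abca1 moved downward.

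Markers of several cell types moved over the same days. The summed FPKM of 8 microglia genes was 64.9, 43.5, 112.9, 103.8, 92.9 and 62.7, and Tmem119 and Cx3cr1, which define the type, were not listed or under 2 FPKM. The sum of 9 monocyte and macrophage genes was 11.5, 17.4, 165, 373, 206 and 33.01, and most of it was Lyz2, at 357 FPKM at day 7, where Ccr2 was at 0.056. The astrocyte sum was 857, 945, 1512, 1231, 1154 and 884. Of its 7 genes only Gfap, at 85.8 FPKM in sham and 698 at day 3, was past the line at days 1, 3, 7 and 14. The median log2 ratio of the 7 was -0.20, 0.28, 0.12 and -0.10 at those days. The sum of 4 of 5 fibroblast genes was 18.0, 22.6, 61.5, 73.0, 68.3 and 20.1. The sum of 3 neutrophil genes, out of a list of 6, was 0.073 in sham, 16.3 at day 1 and 9.28 at day 14, with Ly6g, Mpo and Elane without any value. The part of these cell types in the member values was not tested, and in bulk tissue fewer cells of a type and less RNA per cell cannot be told apart.

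Set against the microglia sum, the members separated. FPKM per summed microglia FPKM was above sham at day 7 for Plin2 (20.5 times sham), Cd36 (9.27), Lpl (3.59), Abca1 (3.41), Apoc1 (2.29) and Soat1 (1.40). It was at 0.99 times sham for Fabp5, 0.81 for Abcg1 and 0.75 for Apoe. At day 14 the ratio was 7.37 times sham for Apoc1, 6.09 for Plin2 and 3.45 for Apoe. Plin2 was also 5.84 times sham at day 1 on this scale, at a time when the microglia sum was at its lowest. Csf1r alone held 52.3 of the 103.8 FPKM at day 7, so this scale describes proportion to these genes, changes with the markers chosen, and does not stand for a number of cells.

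**Figure D4:**
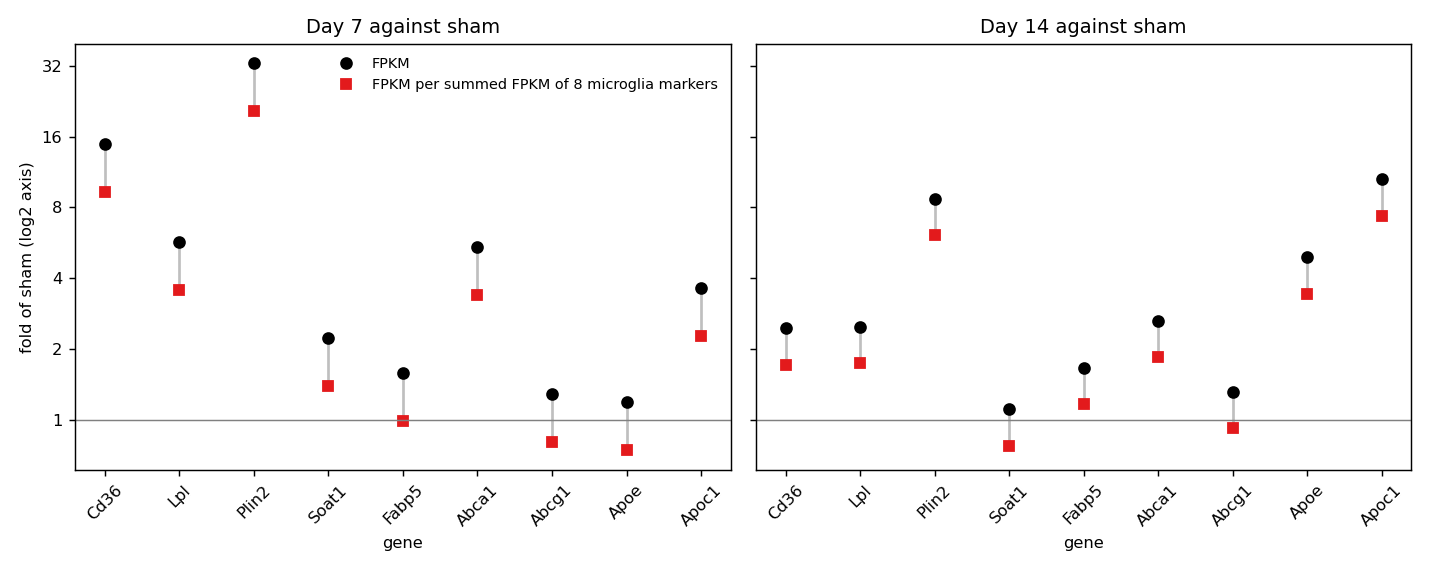
Fold of sham (log2 axis) at day 7 (left) and day 14 (right) for the 9 members listed in sham. Black circles are the ratio of FPKM and red squares the ratio of FPKM per summed FPKM of 8 microglia markers, each from 1 pooled library without an error. At day 7 Plin2 moves from 32.7 to 20.5 and Apoe from 1.19 to 0.75.

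Of 83 other genes of lipid handling, in 9 lists, 67 had a value. Past the line against sham, 4 of 63 compared were higher at day 1, 11 of 63 at day 3, 12 of 64 at day 7, 11 of 63 at day 14 and 2 of 61 at day 28, which is 6.35%, 17.5%, 18.8%, 17.5% and 3.28%, beside 5.11%, 8.54%, 8.53%, 8.97% and 3.68% of all genes. Only 1 was lower, Vldlr at day 14. Their median log2 ratio stayed between -0.04 and 0.26. The share past the line upward was above that of all genes at days 3, 7 and 14, while most of these genes were not past it. Abca7, Angptl4, Cxcl16 and Apoc4 were among those higher at days 3, 7 and 14, and Fabp4 at day 7. In sham each was under 1 FPKM or not listed, so it met the filter only through its value after stroke. These genes could therefore enter almost only as higher, and the share is no test against all genes.

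None of the 8 nuclear receptor and sterol control genes compared was past the line at any day. Nr1h2, which encodes LXR beta, had 16.8, 15.6, 19.5, 9.86, 24.7 and 15.6 FPKM, so day 7, where Abca1 was highest, was its lowest library. Nr1h3, which encodes LXR alpha, had no value. Pparg, the receptor known to act on Cd36, stayed between 0.876 (day 7) and 1.88 FPKM (day 3). These are transcript levels, and say nothing of receptor activity.

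Of 10 lipoprotein and scavenger receptors compared, 4 were higher at each of days 3, 7 and 14. Trem2, a lipid-sensing receptor of microglia, had 9.49, 10.1, 32.6, 63.2, 44.4 and 14.0 FPKM. Cd68, a scavenger receptor family protein of the lysosome, was at 4.32 FPKM in sham and 29.8 at day 7, and Stab1, another scavenger receptor, at 4.02 and 18.3. Scarb1, which exchanges cholesterol with high density lipoprotein, was highest at day 1, at 10.1 FPKM against 5.36 in sham. Vldlr had 12.9 FPKM in sham and 6.28 at day 14 (log2 -1.03). The receptors past the line upward therefore included Trem2, Cd68 and Stab1 and not Scarb1.

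Of 9 genes of lysosomal cholesterol release, Lipa and Npc2 passed the line. Lipa, the acid lipase that frees cholesterol from its esters in the lysosome, had 4.80, 4.33, 12.6, 16.7, 8.999 and 5.93 FPKM, with its highest value at day 7. Npc2, which carries the freed cholesterol, had 16.8, 21.2, 29.5, 37.4, 39.0 and 17.3 FPKM, and was past the line at days 7 (log2 1.15) and 14 (log2 1.21).

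Among 6 other apolipoprotein and transfer genes with a value, Apod was at 91.9 FPKM in sham, 195 at day 3, 140 at day 7 and 253 at day 14, so it too had a lower value at day 7 than at days 3 and 14. Apobec1, the editing enzyme of apolipoprotein B mRNA, was at 1.18 FPKM in sham and 8.34 at day 7. Apoc4, next to Apoc1, was not listed in sham and at 7.23 FPKM at day 7, of which 2.39 lay inside its annotated span, and at 4.06 at day 3, of which none did. In the fatty acid binding family, Fabp7, a protein of astrocytes and radial glia, had 23.1, 32.3, 92.3, 58.2, 58.0 and 18.0 FPKM. Its log2 ratio of 1.99 at day 3 stood beside 0.69 for Fabp5.

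Of 14 lipid droplet and triglyceride genes with a value, none was past the line at days 3, 7 and 14, when Plin2 was. Plin3, another droplet coat protein, had 7.11 FPKM in sham and 11.3 at day 7. Pnpla2, the main triglyceride lipase of droplets, was at 13.96 FPKM at day 1 against 4.54 in sham (log2 1.60). It was named after its values were seen, like Abca7, a relative of Abca1 that was past the line at all 5 days (log2 1.12 at day 7 to 2.31 at day 14) from 0.664 FPKM in sham.

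Profiles of the members were compared over the 6 libraries by Pearson's r of log2(FPKM + 0.1). Among the 6 genes that were highest at day 7, r ran from 0.615 (Abca1 and Msr1) to 0.972 (Soat1 and Cd36). Among the 4 that were highest at day 14 it ran from 0.458 (Abcg1 and Fabp5) to 0.793 (Fabp5 and Apoc1), and between the sets from -0.07 (Apoe and Msr1) to 0.918 (Plin2 and Fabp5), so the ranges overlapped. The scale mattered: r for Apoe and Apoc1 was 0.492 on the log2 scale and 0.880 for FPKM itself, and for Abca1 and Msr1 0.615 and 0.899. These describe 6 libraries scaled in the same way, with Msr1 taken as 0 where it was not listed.

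Over 8564 genes with 5 FPKM or more in at least 1 library and a value in all 6, the genes with profiles most like a member were found by the same r on the log2 scale. For Plin2 these were Prdx1 (r = 0.997), Lyn and Anxa3, for Fabp5 Tax1bp3 (0.999), Rnaset2a and Rap1b, and for Cd36 Npl (0.989), 2810459M11Rik and Gng10. For Abca1 these were Serinc3 (0.991), Flii and Slco2b1, for Abcg1 Fam20c (0.994), Scaper and Slc9a8, and for Lpl Gas6 (0.989), Pold4 and Lmo2. For Soat1 they were Vwa5a (0.989), Dpy19l4 and Gm45700, for Apoe Chkb (0.993), Zdhhc6 and Setdb1, and for Apoc1 Agpat1 (0.992), Scamp3 and Rpl9. With 6 libraries many genes reach such values: 79 were over 0.95 for Plin2 and 16 for Lpl. Shape and size differ, as Prdx1 ran only from 46.6 FPKM in sham to 67.1 at day 7.

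In order of FPKM, Apoe came first and Fabp5 next in all 6 libraries. Plin2 was eighth in sham, between Apoc1 and Cd36, and came next after Fabp5 at days 3 and 7. Storage genes summed to 65.2 FPKM in sham and 149 at day 3, of which Fabp5 held 60.8 and 97.8. Uptake genes summed to 6.19 in sham and 43.6 at day 7, of which Lpl held 5.73 and 32.9. Efflux genes summed to 735 in sham and 3576 at day 14, of which Apoe held 716 and 3534. Each sum was thus mostly 1 gene. Without replicates, neighbours in this order cannot be separated from each other by a spread.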

How the data were processed

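RNA of the ipsilateral cortex was sequenced as 6 poly(A)-selected, strand-specific libraries (paired-end 150 bases), each from 3 pooled mice. The authors deposited FPKM per transcript start, end or splicing event. The submitters' processing notes name Trimmomatic 0.30, HISAT2 2.0.1, HTSeq 0.6.1 and mm10; the assembler and event caller are not given in the sources used here. FPKM hold no read counts, so depth per library is unknown and no interval or count test was used.

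Events were grouped by the Ensembl identifier in the files, of which 15411 of 15441 matched GENCODE M21 (GRCm38). The pseudocount was 0.1, the filter 1 FPKM in 1 of 2 libraries, and genes not listed counted as 0. The gene value can be above the gene's own FPKM where a locus joins neighbours. Members and lists were chosen with earlier results of these data known. Named were all members, and other lipid genes past the line at day 7 or 14 with 5 FPKM or more (at most 4 per list), a few fixed regulators and receptors, the markers, and the 3 genes most like each member. Some genes of these lists are not reported here, and 1 of them was left out of the microglia sum after its values were seen. The script was tested on simulated data. Python 3.11.15, numpy 2.4.6, pandas 2.3.3 and matplotlib 3.10.9 were used.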

Additional observations from a re-analysis of the deposited data

How the results depend on the processing

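A total of 14 alternatives were tried for the gene value, the events used, the filter, the pseudocount, the scaling, transcript length, the reference library and the fold line. The steps between times and the lists of other lipid genes were added after seeing the data. Counts and medians stayed within 1.5 times of the reported ones in 339 cases and moved in 36, single-member ratios in 539 and 20, and among the called single-member ratios that could be computed, none changed sign. No ratio was computed where a gene was not listed, so this leaves out Abca1 at day 14 with summed starts. The 539 include 45 ratios for each changed filter and 45 for genes listed in both libraries only, settings that cannot change a single-member ratio. The larger of start and end sums also gave 45 ratios equal to the reported ones. These cases are no check of the ratios. With summed starts alone, 2 members were higher and 2 lower at day 1, 3 higher (Apoe, Lpl and Plin2) and 2 lower (Soat1, and Abca1 with no start listed) at day 14, and 1 lower at day 28, and the steps had 1 lower from day 1 to 3, 1 higher and 1 lower from day 3 to 7, 1 higher from day 7 to 14, and 1 higher and 3 lower from day 14 to 28. With no filter 2 members were higher at day 1, with a filter of 5 FPKM 3 at day 3, and with day 28 as the reference 2 were higher and 2 lower at day 1. With a fold line of 2, 0 members were higher and 0 lower at day 1, 3 were higher at day 14, and the steps had 0 higher from day 3 to 7, 1 higher and 2 lower from day 7 to 14, and 2 lower from day 14 to 28. A pseudocount of 1 left 1 higher from day 3 to 7. Other lipid genes higher at day 28 numbered 1 with starts alone, a pseudocount of 1, genes listed in both libraries only, or a fold line of 2, 4 with ends alone or no filter, and 0 with a filter of 5 FPKM. That filter left 1, 6 and 7 of them higher at days 1, 3 and 14, and a fold line of 2 left 1, 2 and 5. Fewer genes are compared under a stricter filter, and fewer are called under a higher line, by construction. The cause of the other moves was not tested. The share of all genes past the line is not given here for these settings. The counts under them are therefore not to be set beside the shares of all genes given above. Abca1, Cd36 and Apoc1 lost their day 14 call, and Apoc1 its day 7 call, with summed starts, where none had a start listed. Cd36 at day 14 also lost the line with a pseudocount of 1 (log2 0.54), and Abca1 at day 14 with day 28 as the reference (0.56).

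No paired analysis was possible because each group has 1 library and the labels give no replicate numbers.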
